A study of Mus musculus with 4 samples.

Results

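A set of 10 genes of the lipid-associated macrophage programme were followed in RNA of mouse pancreas: Trem2, Gpnmb, Spp1, Lgals3, Cd9, Fabp5, Apoe, Retnla, Lipa and Psap. They were matched by symbol, and all 10 were present among the 55291 symbols of the count files and passed the filter on low counts, which 19134 genes passed. The data were 4 RNA sequencing libraries, 2 control and 2 labelled knockout. Control mice carried Pdx1-Cre and the genotype poh1f/+, with a single floxed copy of poh1, and the other mice carried Pdx1-Cre and poh1f/f, with both copies floxed. All 4 libraries therefore came from Cre-positive mice with at least 1 floxed copy, and no Cre-negative library was analysed here. Pdx1-Cre acts in pancreatic progenitors, which give rise to the acini, ducts and islets, a lineage to which macrophages do not belong. The age and sex of the mice are not given in the labels, nor is it stated that the libraries came from different animals, so p-values measure only the spread between these libraries. That spread may be technical. Replicates are numbered as in the titles, and knockout stands for the poh1f/f label. The comparison asks how macrophage lipid genes differed between the poh1f/+ and poh1f/f labels.

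Lipid-associated macrophages are cells that gather around dying or lipid-laden cells in fat, atherosclerotic plaques, fatty liver and injured tissue. TREM2 is their surface receptor for lipids and lipoproteins, and it signals through the adaptor TYROBP. Cells of this state take up lipid, break it down in lysosomes, carry it on fatty acid-binding proteins and release it on apolipoprotein E. They also make secreted and surface proteins such as osteopontin, galectin 3, GPNMB and CD9. Retnla encodes RELM-alpha, a secreted protein of alternatively activated macrophages, which belongs to another macrophage state than Trem2 in many tissues. Apart from Trem2, most of these genes are also used by other cells, such as duct epithelium for Spp1, Cd9 and Lgals3.

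Library totals ran from 22875618 to 27849730 counts, with the controls as the smaller pair. Values are CPM, counts scaled to the same library size, so that a single count stood for 0.0342 to 0.0455 CPM. Poh1, now named Psmd14, was not lower in the libraries labelled poh1f/f (1839 and 1906 counts, or 65.9 and 65.2 CPM) than in controls (1354 and 1265 counts, or 61.6 and 52.9 CPM), so each direction given is a direction between labels. Acinar markers, which define pancreas, summed to 9537 and 2051 CPM in the controls and to 178 and 518 CPM in the libraries labelled poh1f/f. Knockout replicate 2 stood apart in enterocyte markers, at 469 CPM against 10.7 to 33 CPM in the other libraries.

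Of the 10 genes, 9 were lower in both libraries labelled poh1f/f than in both controls, and Retnla was higher in both. Across all tested genes, 33.7% were lower and 34.4% higher without overlap of the groups. The genes were chosen by what is known of the programme and with their CPM under the 2 labels in view, so their differences are described without a test, and the count of 9 is no evidence. The median log2 difference of the 10 genes, knockout label minus control, was −0.93, beside 0.00 for all tested genes with quartiles of −0.37 and 0.45. In bulk RNA, fewer cells of a type and less RNA per cell cannot be told apart.

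Trem2 (ENSMUSG00000023992.14) lies on the plus strand of chromosome 17, 48346401 to 48354147, GRCm38, and is protein coding like the other 9 genes. It had 3346 and 2628 counts in the controls and 950 and 960 in the libraries labelled poh1f/f. These were 152 and 110 CPM against 34 and 32.9 CPM, or 131 ± 29.9 against 33.4 ± 0.825 CPM (mean ± SD, n = 2 libraries per group). Both controls were far above both other libraries, which were nearly equal to each other, and the control mean was 3.92-fold higher. The log2 difference was −1.97, with −2.21 to −1.69 over the 4 pairs of a control and a library labelled knockout. It was the largest negative difference among the 10 genes.

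The upstream sequences are shown for the gene with the largest negative difference, Trem2, for Spp1, next to it, for Psap, which differed least, and for Retnla, the single gene that was higher. Each is the 250 bases before the start site in RefSeq on GRCm38.p6, from 5′ to 3′ on the gene's strand. Capitals mark matches to 6 motifs searched on both strands, where N is any base. They were the AP-1-like pattern TGANTCA, with its middle base left free, and the spacing bound by STAT6, TTCNNNNGAA. Also searched were the letters of the TATA box, TATAAA, and of the CCAAT box, CCAAT. The E-box CACGTG of the TFE family and the M-box TCATGTG of MITF completed the search.
Trem2 upstream region, chr17:48346151-48346400, plus strand: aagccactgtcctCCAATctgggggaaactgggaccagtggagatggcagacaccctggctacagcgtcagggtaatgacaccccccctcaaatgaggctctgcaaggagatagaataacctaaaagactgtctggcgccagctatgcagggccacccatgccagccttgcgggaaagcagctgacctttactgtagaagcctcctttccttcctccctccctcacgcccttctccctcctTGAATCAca
Spp1 upstream region, chr5:104434861-104435110, plus strand: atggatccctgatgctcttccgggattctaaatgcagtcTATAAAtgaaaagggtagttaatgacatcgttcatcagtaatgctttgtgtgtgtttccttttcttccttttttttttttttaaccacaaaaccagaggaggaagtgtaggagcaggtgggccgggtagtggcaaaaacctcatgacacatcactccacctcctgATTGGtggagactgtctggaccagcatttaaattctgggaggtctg
Psap upstream region, chr10:60277378-60277627, plus strand: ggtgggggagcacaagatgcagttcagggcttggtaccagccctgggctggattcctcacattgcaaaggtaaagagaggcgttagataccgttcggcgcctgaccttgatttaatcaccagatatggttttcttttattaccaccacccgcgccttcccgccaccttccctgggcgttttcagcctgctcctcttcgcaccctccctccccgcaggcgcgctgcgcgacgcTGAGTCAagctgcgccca
Retnla upstream region, chr16:48842359-48842608, plus strand: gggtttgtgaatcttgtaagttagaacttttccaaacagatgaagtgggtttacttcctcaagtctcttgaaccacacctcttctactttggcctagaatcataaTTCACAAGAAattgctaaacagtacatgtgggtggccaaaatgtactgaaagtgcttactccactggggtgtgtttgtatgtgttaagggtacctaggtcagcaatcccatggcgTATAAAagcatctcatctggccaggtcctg

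A match to the AP-1-like pattern, TGAATCA, began 9 bases before the start of Trem2, and another, TGAGTCA, began 18 bases before the start of Psap. The middle base was A for Trem2 and G for Psap. Among 32851 promoter windows of the same length, 6.75% held a match to this pattern, with any middle base. Retnla held the match TTCACAAGAA 145 bases before its start, a spacing found in 5.85% of windows, and a TATA box 30 bases before it. The RefSeq start used for Retnla lies 58 bases downstream of the start in GENCODE, so this TATA box falls within the GENCODE gene. STAT6 is the transcription factor that carries the signal of interleukins 4 and 13, and the Retnla gene is a textbook target of it. Lgals3, whose difference was negative, held 2 matches of that spacing, at 238 and 225 bases before its RefSeq start, which is 6109 bases from the start in GENCODE. CCAAT boxes, found in 33.8% of windows, began 237 bases before the start of Trem2 and 46 bases before that of Spp1, and also lay in the Lgals3 and Lipa windows. The letters TATAAA, found on either strand in 12.4% of windows, lay 211 bases before the start of Spp1, on the strand of that gene. In Lipa they lay on the opposite strand, as TTTATA, 239 bases before the start. No E-box or M-box match, present in 6.02% and 3.25% of windows, lay in the windows of the 9 genes with an entry in the table, which are all but Fabp5. A match is a description of the letters and not evidence of binding.

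**Figure D1:**
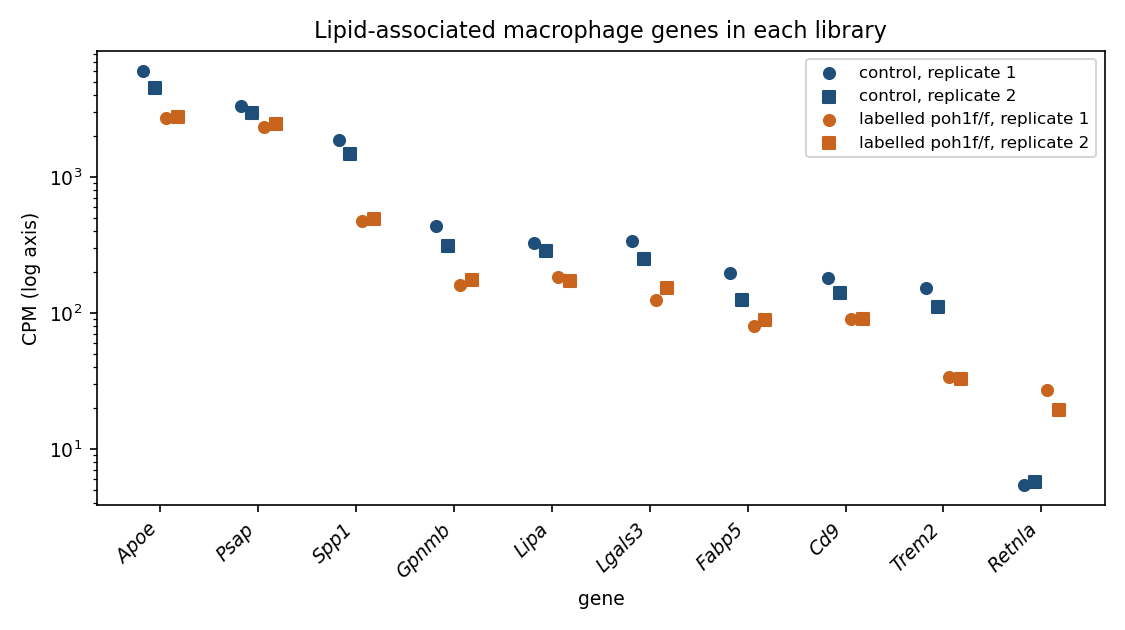
CPM of each of the 10 genes (log axis) in each of the 4 libraries, ordered by the control mean, with controls in blue, libraries labelled poh1f/f in orange, circles for replicate 1 and squares for replicate 2. The orange points lie below the blue ones for 9 genes, from Apoe (5944 and 4491 against 2706 and 2759 CPM) down to Trem2 (152 and 110 against 34 and 32.9 CPM), and above them for Retnla.

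Among the secreted proteins, Spp1 differed most. Spp1 (chromosome 5, 104435118 to 104441050, plus strand) encodes osteopontin, a matrix protein and cytokine. It stood at 1872 and 1476 CPM in the controls and at 476 and 493 CPM in the libraries labelled poh1f/f. The means were 1674 ± 280 and 484 ± 12.4 CPM, a 3.46-fold higher control level and a log2 difference of −1.79 (−1.98 to −1.58 over the library pairs). Spp1 ranked 23rd and 31st in CPM among tested genes in the controls, and 196th and 159th in the libraries labelled poh1f/f. Duct markers, a possible other source of Spp1 RNA, were lower in 8 of 10 cases by edgeR (against 9.95% of all genes). These markers summed to 2352 and 1917 CPM in the controls and to 514 and 663 CPM in the other libraries. Their part in the Spp1 difference was not tested.

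Lgals3 (chromosome 14, 47367751 to 47386160, plus strand) encodes galectin 3, a lectin that binds galactose-bearing glycans at the cell surface and on damaged lysosomes. It had 338 and 248 CPM in the controls and 125 and 153 CPM in the libraries labelled poh1f/f. The groups did not overlap, and the log2 difference was −1.08, with means of 293 ± 64.2 and 139 ± 19.3 CPM. The closest pair of a control and another library differed by −0.70 on the log2 scale. Lgals3 was higher in knockout replicate 2, the library with enterocyte genes, and its log2 difference was −1.23 without that library.

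Apoe (chromosome 7, 19696109 to 19699188, minus strand) encodes apolipoprotein E, which carries cholesterol out of macrophages. It was among the most abundant transcripts of all 4 libraries, ranking 3rd and 5th in the controls and 6th and 5th in the libraries labelled poh1f/f. Its level was 5944 and 4491 CPM in the controls and 2706 and 2759 CPM in the libraries labelled poh1f/f, or 5218 ± 1028 against 2732 ± 37.7 CPM. The log2 difference was −0.93 (−1.14 to −0.70 over the library pairs). Apoe alone took 0.571% and 0.436% of all counts in controls, and 0.275% and 0.289% in the other libraries.

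The membrane proteins Gpnmb and Cd9 were lower by unequal amounts. Gpnmb (chromosome 6, 49036546 to 49070929, plus strand), a glycoprotein of lysosomes and melanosomes, had 435 and 308 CPM in the controls and 159 and 174 CPM in the libraries labelled poh1f/f. Its log2 difference was −1.16, and its means were 371 ± 89.4 and 167 ± 10.7 CPM. Melanocyte and Schwann cell markers, which could hold Gpnmb RNA from other cells, summed to 19.5 and 31.7 CPM in controls and to 65.1 and 56.4 CPM in the other libraries, the direction opposite to that of Gpnmb. Cd9 (chromosome 6, 125460266 to 125494791, minus strand), a tetraspanin of many cell types, had 179 and 141 CPM in the controls and 90.3 CPM in both libraries labelled poh1f/f. Its log2 difference was −0.82.

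Fabp5 (chromosome 3, 10012548 to 10016607, plus strand) encodes a cytosolic carrier of fatty acids. It had 197 and 124 CPM in the controls and 80 and 88.1 CPM in the libraries labelled poh1f/f. The groups did not overlap, but the controls differed 1.59-fold from each other, the widest replicate ratio of the 10 genes. The log2 difference of −0.93 ranged from −1.30 to −0.49 over the library pairs. Fabp5 has 5 processed pseudogenes with 93.6% to 98.3% identity over at least 336 bases, which held at most 26 counts in any library. How reads that fit both were counted is not known.

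The lysosomal genes Lipa and Psap had the smallest negative differences. Lipa (chromosome 19, 34492318 to 34527474, minus strand) encodes lysosomal acid lipase, which splits cholesteryl esters and triglycerides. It had 328 and 286 CPM in the controls and 184 and 172 CPM in the libraries labelled poh1f/f, a log2 difference of −0.79. Psap (chromosome 10, 60277627 to 60302597, plus strand) encodes prosaposin, the precursor of the saposins that help hydrolases reach sphingolipids. It had 3338 and 2939 CPM in the controls and 2338 and 2460 CPM in the libraries labelled poh1f/f. Its log2 difference was −0.39 (−0.51 to −0.26 over the library pairs), a 1.31-fold higher control mean. Psap ranked 12th and 13th in the controls and 7th and 6th in the libraries labelled poh1f/f, so its rank was higher where its CPM was lower.

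Retnla (chromosome 16, 48842551 to 48844461, plus strand) went the other way. It had 120 and 136 counts in the controls and 754 and 560 in the libraries labelled poh1f/f, which were 5.46 and 5.69 against 27 and 19.2 CPM. The controls were nearly equal and both were far below the other libraries. The means were 5.57 ± 0.164 and 23.1 ± 5.54 CPM, 4.14-fold higher under the knockout label, and the log2 difference was 2.05 (1.75 to 2.31 over the library pairs). Eosinophils can also hold Retnla RNA, and of 4 tested markers of theirs edgeR called Prg2 and Il5ra higher and Ccr3 lower. The summed level of all 5 listed eosinophil markers was 11.5 and 11.1 CPM in controls and 17.3 and 13 CPM in the libraries labelled poh1f/f, and Epx, the eosinophil peroxidase gene, had 2 counts in every library. Adipocyte markers were called higher by edgeR in 7 of 8 cases (against 12.1% of all genes). Their sums were 216 and 809 CPM in controls and 4208 and 3588 CPM in the other libraries. The part of either cell type in the Retnla difference was not tested.

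**Figure D2:**
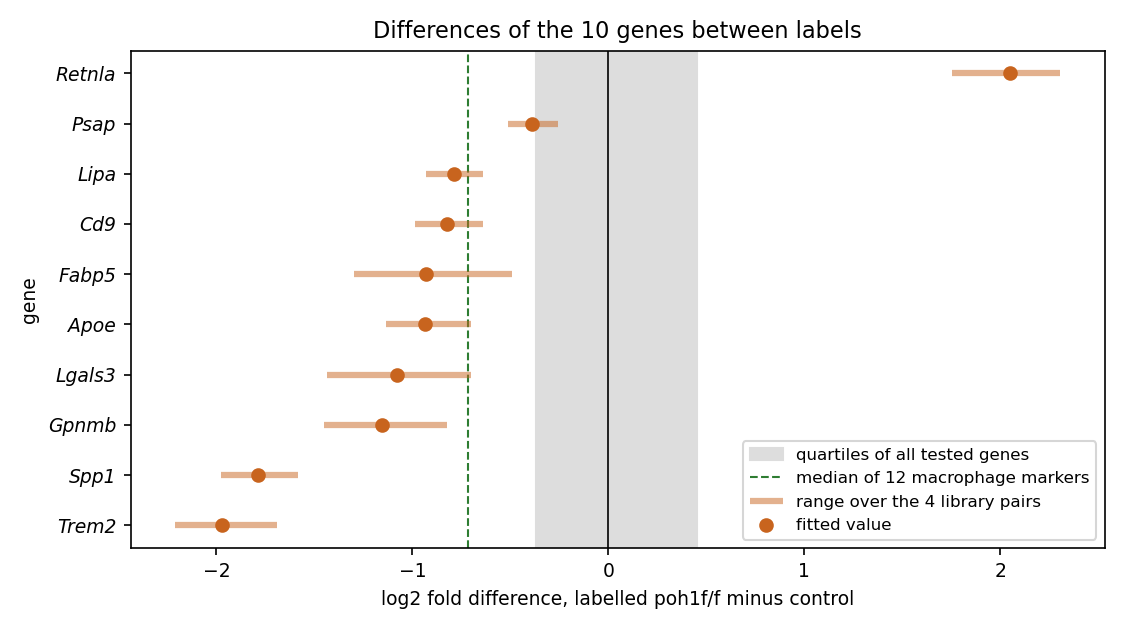
Log2 fold difference of the 10 genes, labelled poh1f/f minus control, with the fitted value as a point and the range over the 4 library pairs as a bar. The grey band spans the quartiles of all tested genes (−0.37 to 0.45) and the dashed line is the median of 12 macrophage markers (−0.72); Trem2 and Spp1 lie furthest to the left, Psap at the edge of the band and Retnla alone on the right.

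All 9 genes with negative differences were higher in control replicate 1 than in control replicate 2, by 1.14-fold (Psap) to 1.59-fold (Fabp5). The libraries labelled poh1f/f were closer to each other, with ratios of replicate 1 to replicate 2 from 0.821 for Lgals3 to 1.07 for Lipa among the same 9 genes. Acinar markers also differed between the controls, as given above, and macrophage markers summed to 8115 CPM in the first and 7165 CPM in the second control. Without control replicate 1 the median of the 10 genes was −0.70, with Trem2 at −1.72, Spp1 at −1.61 and Fabp5 at −0.56. Without control replicate 2 the median was −1.17.

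Per kilobase of annotated exon, the order of the genes differed little between the groups except for Retnla. The length used merges all annotated exons of a gene, such as 3567 bases for Fabp5 and 4946 for Trem2. It can exceed the length of the transcripts present, so the order of genes depends on the annotation. In TPM, counts per kilobase of exon scaled to the same total in each library, the controls had Apoe first (8338 ± 937), then Psap (3926 ± 17), Spp1 (3475 ± 285), Lgals3 (538 ± 72.6), Cd9 (268 ± 22.2), Gpnmb (194 ± 30.5), Lipa (155 ± 1.57), Fabp5 (153 ± 36.5), Trem2 (90.4 ± 13) and Retnla (32.1 ± 3.68; SD, n = 2 each). Fabp5 overlapped with both Lipa and Gpnmb in the controls and has no clear order against them. In the libraries labelled poh1f/f Trem2 was last at 24.8 ± 0.281 TPM. Retnla was there at 141 ± 28.9 TPM and overlapped with Cd9 at 162 ± 5.75 TPM. Gpnmb, at 94.1 ± 9.43 TPM there, overlapped with Lipa (96.4 ± 1.02) and Fabp5 (86.6 ± 8.98) and has no clear order against them. Lipa was above Fabp5 without overlap, at 97.1 and 95.7 against 80.3 and 93 TPM.

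Macrophage markers as a whole were also lower, so the 10 genes were also set against these markers. Most of the 10 genes are also used by other cells, such as duct epithelium for Spp1. A ratio to macrophage markers is therefore not a level per macrophage. Of 12 markers, 10 fell and 2, Csf1r and Cd163, did not pass the edgeR test, with a median of −0.72; across all genes 9.95% fell and 12.1% rose. All 12 had counts in every library, and their summed level was 8115 and 7165 CPM in controls and 4799 and 4608 CPM in the libraries labelled poh1f/f. Relative to that sum, Trem2 was at 1.88% and 1.53% in the controls and at 0.709% and 0.713% in the libraries labelled poh1f/f. Spp1 was at 23.1% and 20.6% against 9.91% and 10.7%. The log2 differences of these ratios were −1.26 and −1.08, and the groups did not overlap.

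Of the other genes, 5 were lower, 2 higher and 1 overlapping in relation to the markers. The share of all genes that separate in such a ratio was not computed, so these counts are no evidence. Gpnmb stood at 5.36% and 4.30% against 3.31% and 3.78%, and Lgals3 at 4.17% and 3.46% against 2.61% and 3.31%. Cd9, Lipa and Apoe had log2 differences of −0.12, −0.09 and −0.23 in this ratio, and Fabp5 overlapped between the groups. The groups were barely apart for Cd9, at 1.97% in control replicate 2 against 1.96% in knockout replicate 2. Psap was higher in relation to the markers, at 41.1% and 41% in controls and 48.7% and 53.4% in the libraries labelled poh1f/f. Retnla was higher too, at 0.0673% and 0.0794% against 0.563% and 0.416%. These ratios depend on the reference. With Csf1r alone, the log2 differences were −1.58 for Trem2, −1.39 for Spp1, −0.76 for Gpnmb, −0.68 for Lgals3, −0.54 for Apoe, −0.43 for Cd9 and −0.39 for Lipa, and Psap overlapped between the groups. With the markers other than Lyz2, Cd14 and Cx3cr1, Cd9 overlapped as well.

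**Figure D3:**
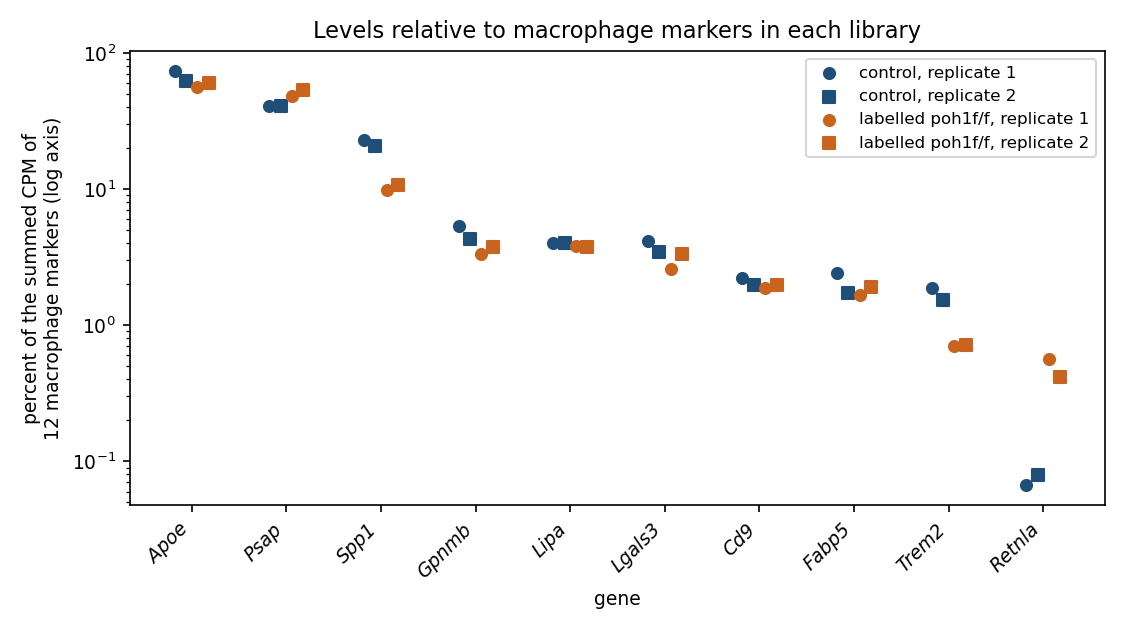
Level of each of the 10 genes as a percent of the summed CPM of 12 macrophage markers (log axis) in each library, with colours and symbols for group and replicate. Trem2 (1.88% and 1.53% against 0.709% and 0.713%) and Spp1 are separated downwards, Retnla and Psap upwards, and Fabp5 overlaps.

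Genes of the TREM2 signalling chain did not move together with the receptor. The edgeR test called 2 of 10 lower (against 9.95%) and 4 higher (against 12.1% of all genes). Tyrobp, the adaptor of TREM2, fell from 311 and 247 CPM to 150 and 159 CPM (log2 fold change −0.85 ± 0.15 SE, edgeR adjusted p = 0.0198). Adam10, a sheddase that cleaves TREM2 from the cell surface, fell by 0.52 ± 0.11 in log2 units (edgeR adjusted p = 0.0295). Hcst, the adaptor DAP10, rose from 2.68 and 3.01 CPM to 8.10 and 8.90 CPM (edgeR adjusted p = 0.0132). The kinases Syk (0.57 ± 0.12) and Btk (0.64 ± 0.14) and the phospholipase Plcg2 (0.68 ± 0.10) rose as well (edgeR adjusted p = 0.0278, 0.0334 and 0.0124). These 3 genes also serve antigen receptors of B cells, and lymphocyte markers rose in 10 of 10 cases, summing to 135 and 96.9 CPM in controls and to 1824 and 1426 CPM in the libraries labelled poh1f/f. The part of lymphocytes in these rises, and in that of Hcst, was not tested. Without control replicate 1 edgeR no longer called Tyrobp (adjusted p = 0.0505), Hcst (0.0695), Adam10 (0.0561) or Syk (0.0689). Then 2 rises and 0 falls were called, with 2 falls at an unadjusted p under 0.05. Adam10 and Syk were also lost without knockout replicate 1 (0.162 and 0.159) or 2 (0.212 and 0.0948), and Btk without control replicate 2 (0.059), knockout replicate 1 (0.0561) or knockout replicate 2 (0.0536).

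Other genes that mark lipid-associated or disease-associated macrophages were mixed. By edgeR 8 of 20 fell (against 9.95%) and 4 rose (against 12.1% of all genes), with a median of −0.49 and 8 genes on neither side. Ms4a7, a membrane protein of macrophages, fell from 271 and 213 CPM to 78.8 and 94.2 CPM (−1.48 ± 0.17, edgeR adjusted p = 0.00772). Ms4a6d, from the same family, fell by 1.32 ± 0.12 (edgeR adjusted p = 0.00475). The genes that rose were Cst7, cystatin F, an inhibitor of lysosomal proteases (2.40 ± 0.26), Rgs1, a brake on chemokine receptor signalling (1.55 ± 0.19), Acp5, tartrate-resistant acid phosphatase (1.21 ± 0.10), and Hvcn1, a voltage-gated proton channel (1.18 ± 0.16), with edgeR adjusted p = 0.00689, 0.00865, 0.00393 and 0.0114. Cst7, Rgs1 and Hvcn1 are also used by lymphocytes, whose markers rose as given above. Itgax, which encodes CD11c, did not pass (−0.15, edgeR adjusted p = 0.543), while dendritic cell markers rose in 6 of 6 cases with sums of 56.9 and 57.1 CPM in controls and 220 and 265 CPM in the other libraries. The falls numbered 4 without control replicate 1 and 5 without control replicate 2, and edgeR did not call Rgs1 without control replicate 1 (adjusted p = 0.0665).

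Lipid handling genes went both ways. Of 20 tested of 21 listed, 5 rose (against 12.1% of all genes), 6 fell (against 9.95%) and 9 did not pass (edgeR; median −0.21). Olr1, a scavenger receptor for oxidised lipoproteins, fell from 12.5 and 11.1 CPM to 4.05 and 3.94 CPM (−1.56 ± 0.20, edgeR adjusted p = 0.0101). Npc1, which exports cholesterol from lysosomes, fell by 0.73 ± 0.11 (edgeR adjusted p = 0.0132). The other falls included Plin2, the lipid droplet coat protein (−0.93, edgeR adjusted p = 0.0192), chosen after its value was seen. The genes that rose included Nr1h3, the oxysterol receptor LXR alpha (1.53 ± 0.10), Apoc1, an apolipoprotein encoded next to Apoe (1.84 ± 0.21), Cd36, a fatty acid transporter (2.14 ± 0.31), and Lpl, lipoprotein lipase (1.37 ± 0.22). Their edgeR adjusted p were 0.00225, 0.00741, 0.0126 and 0.0155. Cd36, Lpl and Nr1h3 are also genes of fat cells, and adipocyte markers rose in 7 of 8 cases, with a part in these rises that was not tested. Without control replicate 1 edgeR called 3 rises and 0 falls, with 7 falls at an unadjusted p under 0.05, and Olr1 (adjusted p = 0.0616), Npc1 (0.0643), Apoc1 (0.0647) and Cd36 (0.0642) were lost. Without knockout replicate 1 there were 3 falls, and Npc1 was lost (0.0575).

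Lysosomal genes fell nearly throughout. Of 18 enzymes and membrane or trafficking proteins of lysosomes, 15 fell, 1 rose and 2, Gm2a and Smpd1, did not pass (edgeR; median −0.62), where 9.95% of all genes fell. Galc, the galactosylceramidase that depends on a saposin made from Psap, fell from 81.8 and 70.3 CPM to 41.2 and 41.1 CPM (−0.89 ± 0.11, edgeR adjusted p = 0.00959). The median of all 18 genes, −0.62, was between the difference of Psap (−0.39) and that of Lipa (−0.79). Sort1, sortilin, a sorting receptor for lysosomal proteins including prosaposin, rose by 0.74 ± 0.18 (edgeR adjusted p = 0.0426), but 3 of the fits that left out a library lost this call (0.155 and 0.0656 without the first and second control, 0.0979 without knockout replicate 1), as did the filter of 10 counts in total (0.0511). The falls numbered 4 without control replicate 1, 9 without knockout replicate 1 and 6 without knockout replicate 2.

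Transcription factors tied to the programme fell in 5 of 12 cases, and 1 rose (edgeR; median −0.41), beside 9.95% and 12.1% of all genes. The genes that fell included Bhlhe41 (−1.28 ± 0.18) and Bhlhe40 (−0.59 ± 0.10), repressors known from lipid-handling and alveolar macrophages, the macrophage factor Maf (−0.83 ± 0.17), and Tfe3 (−0.45 ± 0.09), which drives lysosomal genes. Their edgeR adjusted p were 0.0123, 0.0169, 0.0295 and 0.0267. Of the related factors, Tfeb and Tfec were near 0 (0.04 and −0.02) and Mitf missed the threshold (−0.50, edgeR adjusted p = 0.0525). Pparg, the fatty acid receptor of macrophages and fat cells, rose from 18.2 and 18.1 CPM to 51.3 and 53.7 CPM (1.53 ± 0.11, edgeR adjusted p = 0.00308), next to the rise of adipocyte markers. Without control replicate 1 edgeR called 0 falls, with 6 at an unadjusted p under 0.05 and adjusted p of 0.054 to 0.0658 for these 4 genes; their log2 fold changes there were −1.07 for Bhlhe41, −0.59 for Bhlhe40, −0.61 for Maf and −0.48 for Tfe3. Without knockout replicate 1 there were 3 falls (Bhlhe40 0.0583, Tfe3 0.171) and without knockout replicate 2 there were 2 (Bhlhe40 0.117, Tfe3 0.152, Maf 0.0684). Tfe3 was also lost without control replicate 2 (0.0559) and without scaling beyond library totals (0.0547).

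Receptors and binding partners of osteopontin and galectin 3 fell in 4 of 9 cases and rose in 1 (edgeR; median −0.59), beside 9.95% and 12.1% of all genes. Itgb5, an integrin subunit that binds osteopontin with Itgav, fell from 433 and 421 CPM to 163 and 130 CPM (−1.54 ± 0.15, edgeR adjusted p = 0.00561). Itgav itself fell by 0.71 ± 0.14, the hyaluronan and osteopontin receptor Cd44 by 0.59 ± 0.12, and Itgb1 by 0.61 ± 0.15 (edgeR adjusted p = 0.0257, 0.027 and 0.0481). Itga4, an integrin subunit of leukocytes, rose by 1.14 ± 0.15 (edgeR adjusted p = 0.0106), as lymphocyte markers did. Fibroblast markers, cells that carry many of these integrins, fell in 6 of 8 cases, with sums of 24390 and 28437 CPM in controls and 10055 and 8774 CPM in the libraries labelled poh1f/f, and their part was not tested. The falls numbered 2 without control replicate 1, 1 without control replicate 2 and 1 without knockout replicate 2; Cd44 and Itgb1 were lost in all 4 fits that left out a library (edgeR adjusted p from 0.0504 to 0.203 and from 0.0782 to 0.28), Itgb1 also without scaling beyond library totals (0.0657) and with the filter of 10 counts in total (0.0589), and Itgav without control replicate 2 (0.0521) or knockout replicate 2 (0.0973).

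Genes of alternative activation did not follow Retnla as a list. By edgeR 3 of 15 rose (against 12.1% of all genes) and 3 fell (against 9.95%), with a median of 0.01, and 2 further listed genes had too few counts to test. Arg1, arginase 1, often measured beside Retnla as a mark of this state, fell from 93.7 and 91.4 CPM to 24.1 and 24.9 CPM (−1.92 ± 0.09, edgeR adjusted p = 0.00175). Il13ra1, a subunit of the interleukin 13 receptor, fell by 0.69 ± 0.10, and Retnlg, a relative of Retnla found in neutrophils, by 2.09 ± 0.45 (edgeR adjusted p = 0.0137 and 0.0317). The genes that rose were Pdcd1lg2, the checkpoint ligand PD-L2 (3.26 ± 0.43), Cd209d, a C-type lectin (1.88 ± 0.32), and Retn, the fat cell hormone resistin and another relative of Retnla (2.74 ± 0.57). Their edgeR adjusted p were 0.0107, 0.0181 and 0.03. Mrc1, the mannose receptor, was near 0 (0.01, edgeR adjusted p = 0.986), and Chil3 did not pass (−0.70, edgeR adjusted p = 0.114). Il13, with at most 3 counts per library, and Retnlb were not tested. Without control replicate 1 and without control replicate 2 there were 1 rise and 1 fall each. The calls lost there were those of Il13ra1 (0.0632 and 0.0503), Retnlg (0.156 and 0.102), Pdcd1lg2 (0.0747 and 0.0632) and Cd209d (0.0957 and 0.0543), and Il13ra1 was also lost without knockout replicate 1 (0.056).

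Most close relatives of the 10 genes did not pass the test. The list held 24 TREM, fatty acid-binding, galectin and tetraspanin genes, of which 19 were tested. Of these 19, 6 rose (against 12.1% of all genes), 0 fell (against 9.95%) and 13 did not pass (edgeR). Without overlap of the groups, 8 were higher (against 34.4% of all genes) and 5 lower (against 33.7%). The median of the 19 genes, 0.95, rested on knockout replicate 2 and was −0.07 without that library, with 20 genes tested. DESeq2 and limma-voom called 1 fall each, and 1 gene was lower at an unadjusted p under 0.05 by edgeR. The list left out the galectin Lgals1 and the tetraspanin Cd63, which were counted above among genes that mark lipid-associated or disease-associated macrophages. Both fell (−0.85 and −1.02, edgeR adjusted p = 0.0458 and 0.0182) and were named after their values were seen. The count of falls therefore does not cover all galectins and tetraspanins. Cd37, a tetraspanin of leukocytes, rose from 89.5 and 65.8 CPM to 241 CPM in both libraries labelled poh1f/f (1.63 ± 0.17, edgeR adjusted p = 0.00659). The part of lymphocytes, whose markers also rose, in the Cd37 difference was not tested. The tetraspanin Cd82 rose by 0.75 ± 0.09 (edgeR adjusted p = 0.00854). Fabp4, the fat cell relative of Fabp5, had 3730 and 7144 counts in controls and 32768 and 25537 in the libraries labelled poh1f/f (2.13, edgeR adjusted p = 0.0142; chosen after its value was seen). The intestinal genes Fabp1 and Fabp2 had 2763 and 3118 counts in knockout replicate 2 and at most 22 in any other library, with the enterocyte markers of that library. Without control replicate 1 there were 2 rises, and without knockout replicate 1 there were 11.

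**Figure D4:**
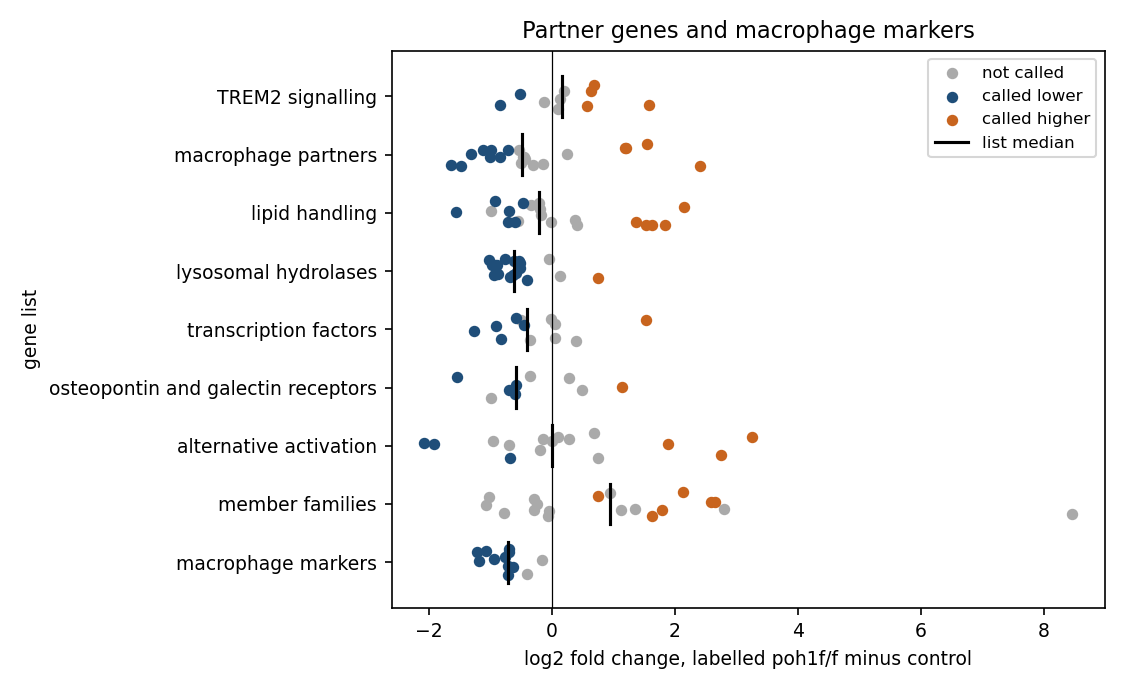
Log2 fold change, labelled poh1f/f minus control, of each tested gene in 8 lists of partner genes and in the macrophage markers, with the call of the edgeR test by colour (blue lower, orange higher, grey not called) and the list median as a black line; vertical scatter within a list has no meaning. Lysosomal genes and macrophage markers lie mostly to the left, with medians of −0.62 and −0.72, while the other lists spread to both sides; the grey point at 8.46 is Fabp1, high in 1 library.

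Among 135 tested genes of the partner lists and macrophage markers, those whose centred log2 CPM over the 4 libraries lay closest to Trem2 were Arg1, Olr1, Ms4a7, Itgb5 and Syngr1. Their root mean square distances were 0.16, 0.23, 0.26, 0.27 and 0.33 on the log2 scale. With 4 libraries this likeness mostly reflects the difference between the labels and is given as a description.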

How the data were processed

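The 4 pancreas libraries were grouped and numbered by their titles. Per the labels' protocols, the authors isolated total RNA with TRIzol, removed DNA and prepared libraries with a VAHTS Universal V6 kit. The submitters' processing notes name STAR 2.7.6a, featureCounts 2.0.1, Trim Galore 0.6.6, FastQC 0.11.9, SAMtools 1.7 and the build GRCm38. The annotation, the strand setting and the rule for multiply aligned reads are not stated in these sources. The authors deposited raw whole-number counts for each gene symbol. Overlapping genes may share reads without a strand setting: Spp1 shares 309 exon bases with Gm42793 (at most 54 counts) and Cd9 shares 218 with Gm26728 (at most 7 counts).

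The 10 genes, the 8 partner lists and the 11 marker lists were chosen with earlier results of these data known. For this text, 19134 genes that passed filterByExpr were tested with edgeR 4.0.16 (R 4.3.3, TMM factors of 0.962 to 1.05). The model held group alone, and quasi-likelihood F test p-values were adjusted by Benjamini-Hochberg over all genes, with calls at 0.05. SE was taken as log2 fold change over the root of F. CPM was computed from TMM-scaled totals. In a simulation of this comparison, 18648 genes were in the step and 200 were changed. Of genes changed 2-fold, 41.1% were called in the right direction, and of those changed 4-fold, 80.2%. Of 123 calls, 7 were wrong. The real comparison called 4224 genes, far more than the 200 changed in the simulation, so these shares may not hold for it. Chi-square per degree of freedom was 32.5 to 190 between libraries, so none was a copy of another. Named partner genes are all those called in a direction with at most 5 calls, otherwise the 2 with the smallest p; other names are marked or are given as not passing, and some genes that the rule names are not reported here. TPM and positions used GENCODE M21 (53292 of 55291 symbols matched) and merged exon lengths. Upstream sequences came from RefSeq on GRCm38.p6 and cover 9 of the 10 genes. Alternatives were DESeq2 size factors, no scaling beyond totals, 2 other filters, DESeq2 1.42.0, limma-voom (limma 3.58.1), the replicate number as a block, and each library left out in turn. In the last, the single library left in a group was taken to vary like the pair in the other.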

Additional observations from a re-analysis of the deposited data

How the results depend on the processing

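The sign of all 10 genes' log2 differences was the same in all 11 alternatives, and their median was −1.17 to −0.70 when 1 library was left out. Leaving out control replicate 1 changed most counts of calls. Over the fits that left out 1 library each, edgeR called 702 to 2338 genes higher and 424 to 1696 lower. TREM2 signalling genes numbered 2 to 3 higher and 0 to 2 lower, and other macrophage partners 4 to 8 lower. Lipid handling genes numbered 3 to 5 higher and 0 to 6 lower, and lysosomal genes 0 to 1 higher and 4 to 14 lower. Transcription factors numbered 0 to 5 lower, osteopontin and galectin receptors 1 to 2 higher and 1 to 3 lower, and alternative activation genes 1 to 4 higher and 1 to 4 lower. Relatives of the 10 genes numbered 2 to 11 higher and 0 to 1 lower. Without scaling beyond library totals, 2 transcription factors were higher, the median of all genes was 0.10 and 64.9% of calls were higher, against 54.9%. With the filter of 10 counts in total, 0 lysosomal genes were higher, and 1 was at an unadjusted p under 0.05. DESeq2 and limma-voom each called 1 relative lower. The labels give no pairing behind the replicate numbers, and deviations of same-numbered libraries correlated by 0.0282 across genes, which are not independent. With the replicate block, 3392 genes were called against 4224, with 1 TREM2 signalling gene lower, 0 lysosomal genes higher (1 at an unadjusted p under 0.05) and 2 osteopontin or galectin receptors lower. Under this block 6 named genes were not called: Adam10 (adjusted p = 0.0808), Syk (0.0721), Sort1 (0.0661), Tfe3 (0.0634), Cd44 (0.0681) and Itgb1 (0.105). Causes of these changes were not tested, except that leaving out a library leaves fewer samples. Of 41 named partner genes, 17 kept their call in all alternatives and none changed direction. Depth limits genes such as Il13, with at most 3 counts per library.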
